A study of Homo sapiens with 3 samples.

Results

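The genes described here encode core proteins of the spliceosome and proteins of the RBM (RNA-binding motif) family. Members were chosen by gene symbol, with earlier results of these data known. The symbols begin with SF3A, SF3B, SNRP, SNRNP, PRPF, U2AF, LSM or RBM followed by a capital letter or a digit. PUF60, SRRM1, SRRM2 and ACIN1 were added by name. In 2 deposited tables of exon-skipping events this gave 87 genes of 11271, with 306 distinct exons. The RS2 table held 308 member events in 84 genes, out of 40702 events in all. The RS3 table held 312 member events in 85 genes, out of 42518.

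RNA came from BJ cells, an established human fibroblast line from foreskin, on day 8 of induced viral expression of the OSKM reprogramming factors (OCT4, SOX2, KLF4, MYC). Per the labels, 1 library each was made after SMAD3 siRNA, SFRS11 siRNA and non-targeting siRNA; the siRNA libraries are labelled knock-downs and the non-targeting library wild type, and all groups expressed OSKM. SMAD3 is a transcription factor of TGF-beta signalling, and SFRS11 (now SRSF11) is a serine- and arginine-rich splicing factor. Libraries coded RS2 and RS3 are each set against 1 shared library, and the labels do not say which code is which siRNA, so the codes are kept and no knockdown is named below. With 1 library per code there are no replicates, and no p-value here tests a condition.

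The spliceosome is assembled on each intron from small nuclear RNAs and their proteins. The U1 particle pairs with the 5′ splice site. U2AF and the U2 particle mark the 3′ splice site and the branch point, and the U4/U6.U5 tri-snRNP then joins to form the catalytic machine. Sm proteins ring most of these RNAs and LSM proteins ring U6. RBM proteins are a looser family that shares RNA-recognition motifs, and many of them help choose which exons are kept. Several splicing factors limit their own amount through exons whose inclusion brings in a stop codon and sends the transcript to nonsense-mediated decay.

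For every skipped exon a row gives the difference in inclusion level, with an FDR and a p-value. The inclusion level is the share of transcripts across the exon's position that contain it. A positive difference is read as higher inclusion in RS2 or RS3 than in the shared library. Called events have a deposited FDR under 0.05 and differ by 0.1 or more in size. The authors' p-values compare 2 libraries, not 2 treatments. Read depth is unknown, and the tables hold no gene levels, so neither the knockdowns nor the fibroblast identity of the cells could be checked by expression. Of 17 fibroblast markers, 16 had skipping events listed in each table. Of 10 pluripotency markers, 4 (RS2) and 6 (RS3) were listed, and of 10 epithelial markers, 4 (RS2) and 5 (RS3). A listed event is not a level.

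The exon sequences below are those of member exons that passed the FDR threshold in RS3, lie wholly in coding sequence of an annotated coding transcript, and are skipped in another. The 51-base PUF60 exon also meets this description, but its sequence is not shown. The exons are printed because they are what the cells keep or leave out. They were read from GENCODE 29 transcripts after the exons of each gene had been lined up by length and spacing; the match rests on that pattern, not on hg19 sequence. Lengths and positions are hg19, as deposited. Capitals mark the last 3 bases of the exon, which the 5′ end of U1 RNA pairs with at the splice site.
LSM14B, 117 bases, chr20:60702641-60702757, plus strand: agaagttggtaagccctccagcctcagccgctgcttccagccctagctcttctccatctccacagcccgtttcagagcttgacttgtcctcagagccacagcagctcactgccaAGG
SNRPC, 43 bases, chr6:34725689-34725731, plus strand: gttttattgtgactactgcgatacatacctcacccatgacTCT
RBM23, 113 bases, chr14:23378692-23378804, minus strand: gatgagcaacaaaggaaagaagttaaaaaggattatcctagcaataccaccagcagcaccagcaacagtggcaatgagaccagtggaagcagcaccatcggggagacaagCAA
RBM23, 48 bases, chr14:23377542-23377589, minus strand: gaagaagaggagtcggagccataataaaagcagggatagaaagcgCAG
RBM23, 54 bases, chr14:23374815-23374868, minus strand: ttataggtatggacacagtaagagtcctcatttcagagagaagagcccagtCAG
RBM39, 66 bases, chr20:34317384-34317449, minus strand: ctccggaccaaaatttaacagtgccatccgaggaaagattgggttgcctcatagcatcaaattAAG
SRRM1, 42 bases, chr1:24989674-24989715, plus strand: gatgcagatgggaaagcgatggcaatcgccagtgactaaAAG

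The LSM14B, RBM39 and SRRM1 exons, and the RBM23 exons of 48 and 54 bases, have lengths that are multiples of 3, so leaving them out keeps the reading frame. The SNRPC exon and the 113-base RBM23 exon do not. The 48-base RBM23 exon is 79.2% purine, against 37.2% for the SNRPC exon. SNRPC ends in TCT and the 113-base RBM23 exon in CAA, while the other 5 shown end in G. Of the 277 member exons that could be lined up, 228 (82.3%) end in G and 147 (53.1%) in AG.

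In RS3, exons of 6 member genes were called, nearly all with lower inclusion, and in RS2 none was. The RS3 table had 8 called member events of 312, of which 7 had lower inclusion and 1 higher. That is 2.56% of member events beside 0.967% of all events in the table, and 6 of 85 genes (7.06%) beside 3.05% of all genes. Of the called genes, PUF60, SRRM1 and ACIN1 were added to the list by name. The list was chosen with earlier results of these data known, so these shares cannot be read as an excess. Of all RS3 events, 0.736% were called with lower and 0.23% with higher inclusion. The RS2 table had 0 called member events of 308, beside 0.0712% of all events (0.0442% lower, 0.027% higher) and 0.238% of all genes. No RS2 member event passed the FDR threshold alone, beside 0.165% of all, or 0.0934% with a difference under 0.1. In RS3 the FDR threshold alone was passed by 12 member events (3.85%), beside 1.64% of all. At an unadjusted p under 0.05 there were 20 RS2 member events (6.49%), beside 4.52% of all, and 30 RS3 member events (9.62%), beside 7.61%.

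Most member exons barely differed in either table. The median member difference was 0.000 in both tables, beside 0.000 for all RS2 events and -0.001 for all RS3 events. The quartiles of member differences were -0.006 and 0.008 for RS2, and -0.0152 and 0.0062 for RS3. Over all events the quartiles lay farther apart, at -0.016 and 0.019 for RS2, and -0.027 and 0.014 for RS3. Differences of at least 0.1 were listed for 33 member events in RS2 (10.7%, beside 19.2% of all) and 47 in RS3 (15.1%, beside 21.2%). In 63 of the 84 RS2 genes and 60 of the 85 RS3 genes, every listed event was within 0.1 of the shared library.

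**Figure D1:**
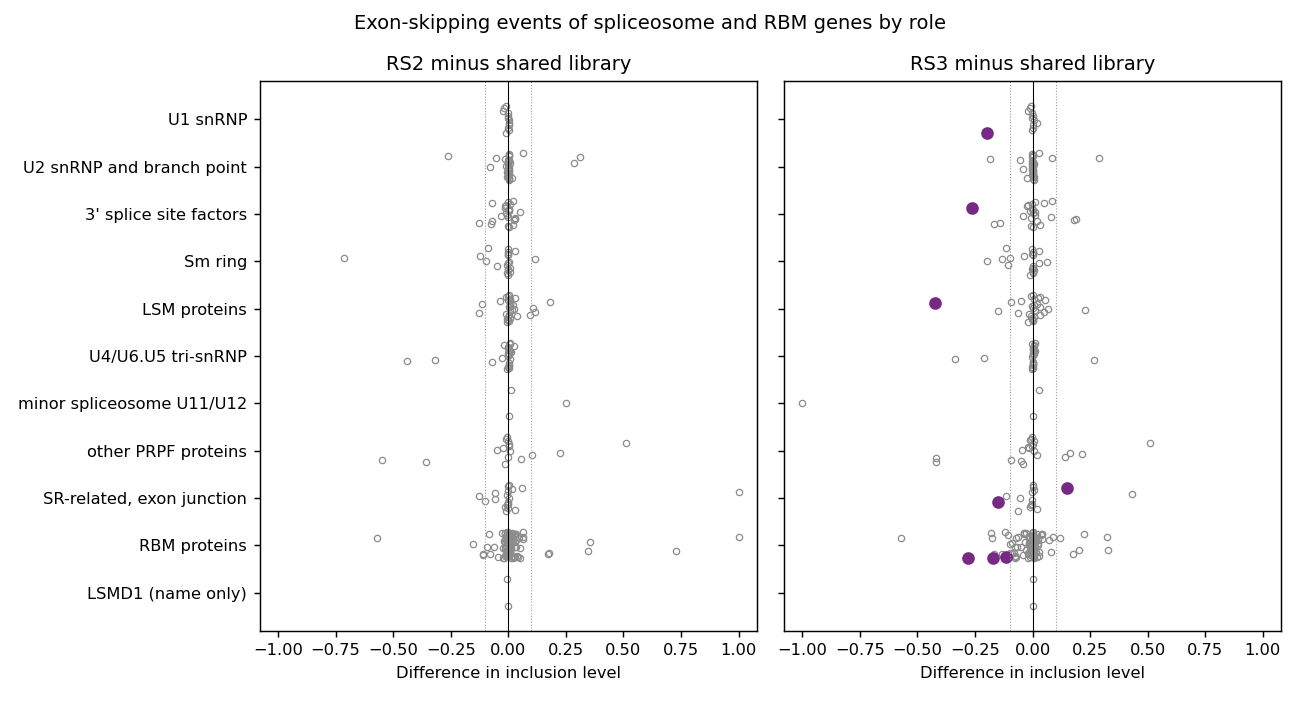
Each circle is 1 exon-skipping event of a member gene, placed by its deposited difference in inclusion level (x axis, no unit, -1 to 1) and its role (rows), for RS2 (left) and RS3 (right). Filled circles are called events, of which RS3 has 8 and RS2 has 0, and dotted lines mark a difference of 0.1 in size. Over all roles together the quartiles are -0.006 and 0.008 for RS2, and -0.0152 and 0.0062 for RS3.

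Among U1 proteins, SNRPC moved in RS3. SNRPC encodes U1-C, which steadies the pairing of U1 with the 5′ splice site. Inclusion of its 43-base exon fell by 0.199 in RS3 in the authors' deposited table (FDR 6.03e-08), while the RS2 difference there was -0.011 (FDR 1). Of the annotated coding transcripts of SNRPC, 1 contains this exon and 1 skips it. Both other listed SNRPC exons, of 90 and 77 bases, lay within 0.001 of the shared library in both of the authors' deposited tables. The U1-A gene SNRPA had 4 exons, with differences of -0.001 to 0.003 in RS2 and -0.001 to 0.019 in RS3 in the authors' deposited tables, and none was called.

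SNRNP70, which encodes the U1-70K protein, had a small difference with a low FDR. A 1474-base exon form on chromosome 19 (49605371 to 49606844) differed by -0.018 in RS3 in the authors' deposited table, at an FDR of 0.000106, and by -0.010 in RS2 (FDR 1). Its size is under the 0.1 minimum, so it was not called. Shorter forms of 60 and 72 bases that share its start differed by -0.011 and -0.008 in RS3, and by -0.023 and -0.017 in RS2, in the authors' deposited tables. All 3 forms are annotated in transcripts subject to nonsense-mediated decay and in no coding transcript, and each holds a stop codon.

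No exon of the U2 particle was called in either table. The group had 9 genes, with 35 events in RS2 and 32 in RS3. Over all events 0.0712% were called in RS2 and 0.967% in RS3, so 0 among so few does not set this group apart. SF3B1, the largest subunit of the SF3b complex that holds the branch point, had a 56-base exon at 0.062 in RS2 and 0.030 in RS3 in the authors' deposited tables. The other SF3B1 exons were within 0.002 of the shared library. SNRPA1, which encodes the U2-A′ protein, had the widest spread. Its 109-base exon (chromosome 15, 101830019 to 101830127) differed by 0.312 in RS2 (FDR 0.792) and by 0.086 in RS3 (FDR 1) in the authors' deposited tables. A 79-base SNRPA1 exon lay on opposite sides of the shared library, at -0.261 in RS2 and 0.290 in RS3 in the authors' deposited tables, with an FDR of 1 in both.

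At the 3′ splice site, PUF60 had the clearest event. PUF60 binds uridine-rich stretches and works with U2AF2 in recognising that site. Its 51-base exon on chromosome 8 (144902836 to 144902886) fell by 0.262 in RS3 in the authors' deposited table, where the FDR is listed as 0; the RS2 difference was -0.015 with an FDR of 1. The exon is coding in 5 annotated coding transcripts and skipped in 6, and its length keeps the frame. Other PUF60 rows in the authors' deposited tables ranged over -0.072 to 0.022 in RS2 and -0.023 to 0.083 in RS3.

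The U2AF genes were not called. U2AF1L4, a relative of the small U2AF subunit U2AF1, had a 67-base exon at -0.128 in RS2 (FDR 0.965) and 0.190 in RS3 (FDR 0.218) in the authors' deposited tables. A 113-base form with the same start had rows of -0.069 and 0.026 in RS2 and of 0.181 and 0.020 in RS3 in the authors' deposited tables. In U2AF2, the large subunit, a 120-base exon is annotated in a decay transcript and in no coding transcript. It differed by 0.002 in RS2 and 0.009 in RS3 (FDR 0.265) in the authors' deposited tables.

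The Sm proteins had 20 events in each table over 8 genes, and 0 were called. Beside 0.0712% of all events in RS2 and 0.967% in RS3, a count of 0 in 20 does not set them apart. SNRPB encodes SmB, which is known to act on an alternative exon of its own transcript. Its 124-base exon (chromosome 20, 2447838 to 2447961) holds a stop codon and is annotated in a decay transcript and in no coding transcript. It differed by -0.010 for RS3, per the authors' deposited table. The FDR of that row, 0.0267, passed, but the size did not; the RS2 difference was -0.007 (FDR 0.964). For SNRPG a 23-base exon differed by 0.029 in both of the authors' deposited tables, with an FDR of 0.451 in RS2 and 0.182 in RS3. SNRPN, which encodes the SmB relative SmN, had the largest Sm value, at -0.714 in RS2 with an FDR of 1. This is 1 of 2 RS2 rows of a 316-base exon. The other RS2 row was at -0.123, and the RS3 rows were at -0.098 and -0.036, in the authors' deposited tables. SNRPE, an Sm ring subunit, had a 41-base exon at -0.088 in RS2 (FDR 1) and -0.115 in RS3 (FDR 0.375) in the authors' deposited tables.

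LSM14B had the largest called member difference. It encodes an LSM-domain protein of cytoplasmic RNA granules, not a subunit of the U6 ring. The called row of its 117-base exon fell by 0.422 in RS3 in the authors' deposited table (FDR listed as 0). The RS2 row with the smallest p-value differed by -0.114 (FDR 0.713) in the authors' deposited table. This exon has 4 rows in each table, which are not tied to flanking exons there, so rows cannot be paired between tables. The other RS3 rows in the authors' deposited table were -0.092, -0.052 and 0.053, and the other RS2 rows were 0.009, 0.181 and 0.007. The RS3 loss thus rests on 1 of 4 rows. Annotated coding transcripts skip this exon in 3 cases and keep it in 1.

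Genes of the U6 and other LSM rings had no called event. The LSM group as a whole had 30 events in RS2 and 29 in RS3, where 0.0712% and 0.967% of all events were called. LSM12 had a 241-base exon with rows of both signs, from -0.126 to 0.114 in RS2 and from -0.149 to 0.229 in RS3, in the authors' deposited tables. LSMD1 matched the naming rule but encodes a subunit of an N-terminal acetyltransferase. Its 2 exons were within 0.005 of the shared library in both of the authors' deposited tables.

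The tri-snRNP genes, with 24 events in RS2 and 22 in RS3, had 0 calls. With 0.0712% (RS2) and 0.967% (RS3) of all events called, this does not set them apart. PRPF4B, a kinase that acts on the tri-snRNP, had 2 overlapping exon forms with lower inclusion in both tables. The 77-base form (chromosome 6, 4062791 to 4062867) was at -0.439 in RS2 and -0.338 in RS3, and the 204-base form at -0.317 and -0.211, in the authors' deposited tables. FDRs of these rows were between 0.744 and 0.939. The remaining large tri-snRNP value was 0.269, for another PRPF4B exon in RS3 in the authors' deposited table (FDR 1).

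Other PRPF proteins had large differences with high FDRs. PRPF39, a U1-associated factor of alternative splicing, had a 100-base exon at -0.548 in RS2 and -0.419 in RS3, and a 69-base exon at -0.359 and -0.418, in the authors' deposited tables; all 4 FDRs were listed as 1. PRPF18, a factor of the second catalytic step, had a 121-base exon at -0.015 in RS2 and -0.042 in RS3 (FDR 0.203) in the authors' deposited tables. The minor spliceosome gene SNRNP48 had a single listed event, at -1 in RS3 at an FDR of 0.969 in the authors' deposited table. RBM41, a protein of the same minor machinery, reached 0.249 in RS2 (FDR 1) in the authors' deposited table. Such sizes without a low FDR give no call.

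SRRM1 and ACIN1 moved in opposite directions in RS3. SRRM1 is a splicing coactivator, and its 42-base exon was the 1 called member event with higher inclusion. It rose by 0.15 in RS3 (FDR 0.0116) and stood at 0.058 in RS2 (FDR 1) in the authors' deposited tables. Annotated coding transcripts of SRRM1 keep this exon in 2 cases and skip it in 2. A 143-base SRRM1 exon is annotated in a decay transcript and in no coding transcript. It was at 1 in RS2 and 0.433 in RS3 in the authors' deposited tables, with FDRs of 1.

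ACIN1 encodes acinus, a protein at the edge of the exon junction complex. Inclusion of its 62-base exon (chromosome 14, 23540334 to 23540395) fell by 0.149 in RS3 (FDR 0.00253) in the authors' deposited table; the RS2 value was -0.059 (FDR 1). Of its annotated coding transcripts, 2 contain this exon and 5 skip it, and in neither of the 2 is the whole exon coding. A different ACIN1 exon, of 120 bases (23559191 to 23559310), was the second lowest member p-value in RS2, at -0.127 with an FDR of 0.362, and stood at -0.054 (FDR 1) in RS3 in the authors' deposited tables. SRRM2, a large scaffold of the active spliceosome, stayed between -0.065 and 0.031 over all its rows in both of the authors' deposited tables. RBM8A, a core exon junction protein, had exons within 0.001 of the shared library there.

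**Figure D2:**
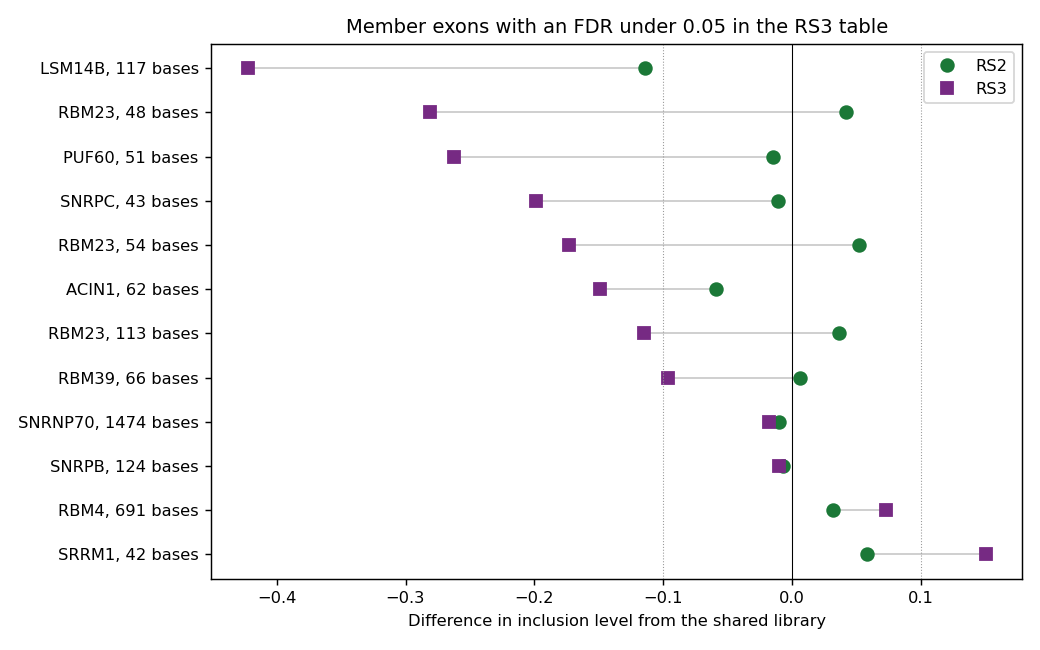
Deposited difference in inclusion level from the shared library (x axis, no unit) for the 12 member exons with an FDR under 0.05 in the RS3 table, with RS2 as circles and RS3 as squares; for an exon in several rows, the row with the smallest p-value in each table is drawn. The 8 called exons lie beyond the dotted lines at 0.1 in RS3, and LSM14B, at -0.422 in RS3 and -0.114 in RS2, is the only one of them beyond a line in RS2.

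RBM23 held 3 of the 8 called events. RBM23 is a close relative of the splicing factor RBM39 and carries an arginine- and serine-rich region like it. The 54-base exon fell by 0.173 in RS3 (FDR 7.12e-06) and was at 0.052 in RS2 in the authors' deposited tables. The called row of the 48-base exon fell by 0.281 in RS3 (FDR 0.000675), and the called row of the 113-base exon was at -0.115 (FDR 0.0316), in the authors' deposited table. In RS2, 0 of the 18 RBM23 rows had an FDR below 1.

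Within RBM23, rows of the same exon differed. The other RS3 rows of the 48-base exon were -0.078 and -0.010, and its RS2 rows were 0.021, 0.042 and 0.023, in the authors' deposited tables. For the 113-base exon the other RS3 rows were 0.021, 0.007 and 0.026 in the authors' deposited table, so its lower inclusion rests on 1 of 4 rows. Its RS2 rows in the authors' deposited table were 0.028, -0.045, 0.036 and 0.024. Just outside the FDR threshold, a 76-base exon was at -0.074 in RS3 (FDR 0.0845) in the authors' deposited table. Over the whole gene, 14 of 20 RS3 rows were negative, 5 positive and 1 at 0; in RS2, 8 of 18 were negative and 10 positive. The 54- and 48-base exons are each skipped by more annotated coding transcripts (5 and 10) than contain them (4 and 5). The 113-base exon is in 12 and skipped by 4.

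**Figure D3:**
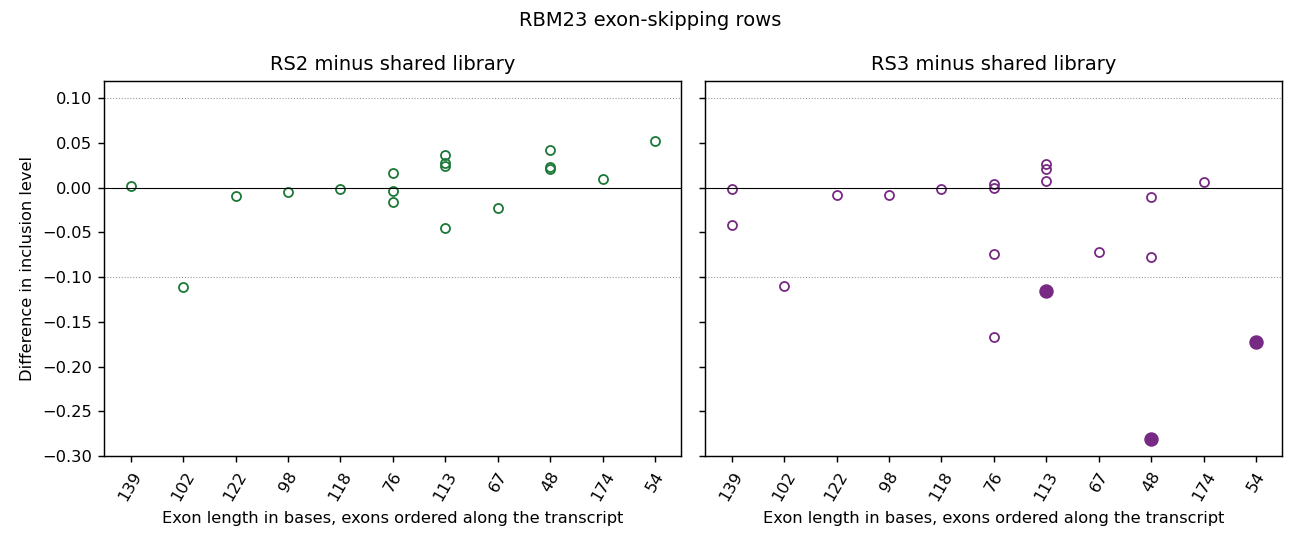
Deposited difference in inclusion level (y axis, no unit) of every RBM23 row, with exons in transcript order and named by their length in bases (x axis), for RS2 (left) and RS3 (right). Filled circles are the 3 called RS3 rows, in the exons of 113, 48 and 54 bases, and dotted lines mark 0.1 in size; the RS2 rows of these exons lie between -0.045 and 0.052.

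RBM39 lay just under the size limit. RBM39 binds the branch-point machinery through a U2AF-like domain. Its 66-base exon was at -0.096 in RS3 with an FDR of 0.000997, and the other RS3 row of the same exon was at 0.002, in the authors' deposited table. Its RS2 rows in the authors' deposited table were 0.006 and 0.005. A 90-base form that shares one end of it differed by 0.175 in RS2 and by -0.090 in RS3 in the authors' deposited tables, with FDRs of 1 and 0.920. The called event nearest the limit from the other side was the 113-base exon of RBM23, at -0.115.

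RBM4, which acts in splicing and translation, had a 691-base exon (chromosome 11, 66410921 to 66411611) at 0.073 in RS3 (FDR 0.00515) and 0.032 in RS2 (FDR 1) in the authors' deposited tables. The same exon listed under the read-through gene RBM14-RBM4 was at -0.002 in RS3 and -0.005 in RS2 there. The related 677-base exon of RBM4B was at 0.022 in RS3 and 0.065 in RS2 (FDR 0.748) in the authors' deposited tables. RBM4 and RBM4B are close copies and the read-through gene overlaps RBM4, so how reads were shared among the 3 is uncertain. In RS3, 4 member events passed the FDR with a difference under 0.1 (SNRNP70, RBM39, RBM4 and SNRPB), against 0.677% of all RS3 events.

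Other RBM genes had differences of some size but no call. RBMS1, a binder of single-stranded nucleic acids, had a 48-base exon at -0.182 in RS3 (FDR 0.270) and 0.014 in RS2 in the authors' deposited tables. In RBM47, a cofactor of RNA editing, a 445-base exon was at 0.727 in RS2 (FDR 0.342) and 0.327 in RS3 (FDR 0.918) in the authors' deposited tables; this RS2 row had the lowest p-value of all RS2 member events. A 207-base form of that RBM47 exon was at 0.348 in RS2 and 0.2 in RS3 in the authors' deposited tables. RBM15, an adaptor of the complex that methylates adenosines in RNA, had a 111-base exon at 1 in RS2 (FDR 0.564) and 0.322 in RS3 (FDR 0.8) there. RBM26 had a 72-base exon at -0.570 in both of the authors' deposited tables, with FDRs of 1 in RS2 and 0.788 in RS3. A 110-base exon of RBMS2 stood at 0.356 in RS2 and a 96-base exon of RBM38 at -0.152 in RS2, both at an FDR of 1 in the authors' deposited table. The RBM group had 123 events in RS2 and 133 in RS3; RBM26-AS1, an antisense gene caught by the rule, is counted in RS2 with 0 calls.

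Member exons were then described by how GENCODE 29 annotates them. Of 306 member exons, 277 (90.5%) could be lined up. Of these, 48 are wholly coding in a coding transcript and skipped by another, and 111 are coding and skipped by none. Another 41, called decay-only here, occur in decay transcripts and in no coding transcript, though other noncoding transcripts may hold them. The remaining 77 are of other kinds, such as exons with untranslated bases. In RS3, 7 of the 8 called member events belonged to the first class. That is 7 of 56 events (12.5%), beside 1.94% of all events of this class in the table. RBM23 gave 3 of these 7, and PUF60 and SRRM1 were added to the list by name. The LSM14B row and the RBM23 rows of 48 and 113 bases are each the only called row of an exon with several rows. The ACIN1 event was of the last class, and 0 of 106 events in exons that no annotated coding transcript skips were called, beside 0.365% of all.

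Of the 41 decay-only exons, 28 hold an annotated stop codon. In RS2, 24 of the 37 listed rows were negative, 8 positive and 5 at 0. In RS3, 25 of 37 were negative, 10 positive and 2 at 0. Some rows are overlapping or repeated forms of an exon, as in SNRNP70, PRPF39 and U2AF1L4, so rows do not count as separate exons. Over all genes the rows of this class were split more evenly, with 1294 negative and 1277 positive in RS2 and 1449 negative and 1323 positive in RS3. The member medians were -0.007 and -0.005, beside 0.000 for all in both tables. None of these member rows was called, beside 0 of all RS2 rows and 0.655% of all RS3 rows of this class. Most sizes were under 0.02. Both tables share 1 library, so the tables do not count as separate observations. No test was made.

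**Figure D4:**
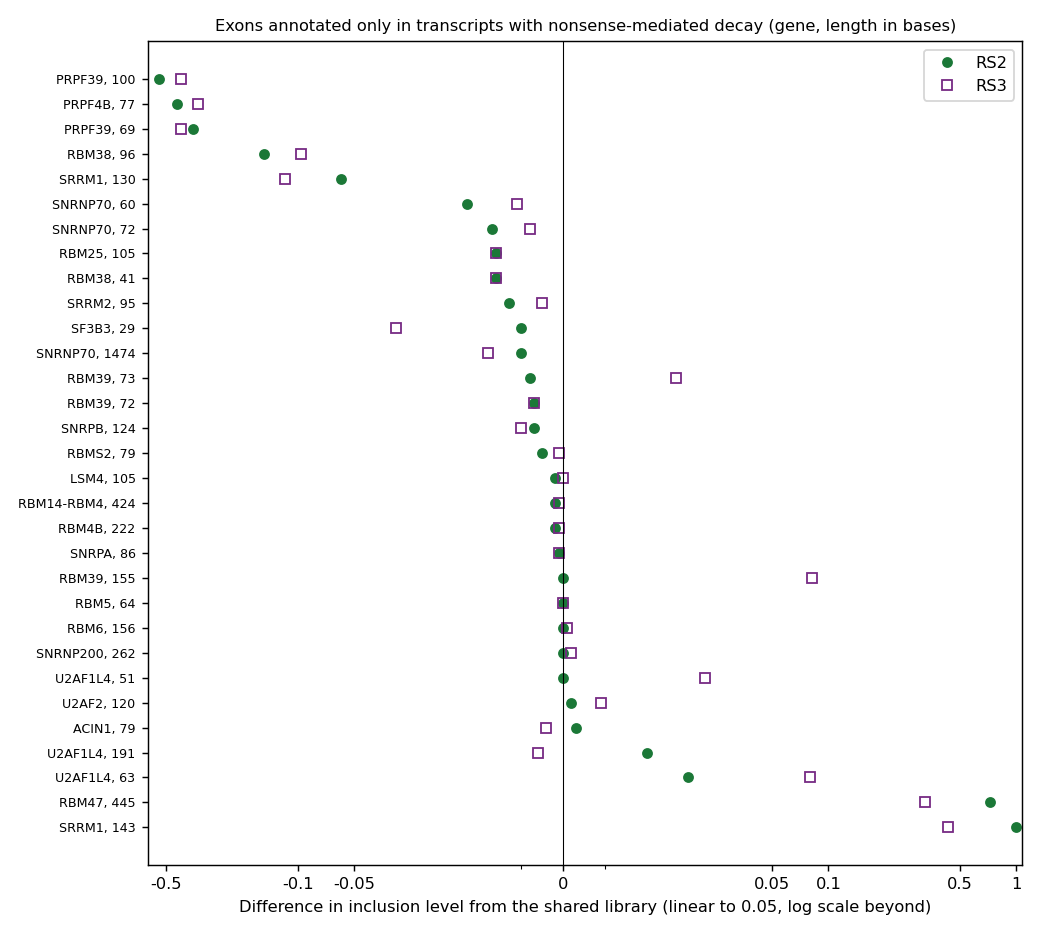
Deposited difference in inclusion level (x axis, no unit, linear to 0.05 and logarithmic beyond) for 31 decay-only exons of 22 member genes listed in 1 row of each table, with RS2 as filled circles and RS3 as open squares. Decay-only exons are in a decay transcript and in no coding transcript. Exons are named by gene and length in bases. Most points lie at or left of 0 and within 0.05 of it, among them the SNRNP70 and SNRPB exons.

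Exon lengths of members were like those of the tables at large. Lengths were a multiple of 3 for 129 of 308 RS2 events (41.9%, beside 41.1% of all) and 127 of 312 RS3 events (40.7%, beside 41.2%). Of the 8 called RS3 events, 5 had such a length, beside 212 of 411 over the table. Median lengths were 105 and 110 bases, beside 119 and 120.

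Other genes of the splicing pathway, from a list outside the naming rule, gave 0 called events of 263 in RS2, beside 0.0712% of all. In RS3 they gave 4 of 274 (1.46%, beside 0.967% of all events), all with lower inclusion. SUGP2, a protein with a G-patch domain, had 3 of them, at -0.154, -0.152 and -0.118 in RS3, and the same exons were at -0.112, -0.118 and -0.052 in RS2, in the authors' deposited tables. The first 2 are overlapping forms of 1 exon. STRAP, which joins the SMN complex that loads Sm rings, had a 136-base exon at -0.117 in RS3 (FDR 1.26e-08) and -0.007 in RS2 in the authors' deposited tables. Of 77 listed genes of this kind, 2.60% had a call in RS3, beside 3.05% of all genes and 7.06% of members. Both lists were chosen with earlier results of these data known, and this difference was not tested.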

How the data were processed

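Per the submitters' processing notes, reads were handled with FastQC and STAR on hg19, without versions; event caller: not given in the sources used here. Per the labels' protocols, libraries were mRNA-selected TruSeq preparations. The authors deposited p-values and FDRs per event, and the deposited difference in inclusion level, used here as a score between -1 and 1. It was taken as the first-listed level minus the second, and the second library is the one both tables share; this order was seen in the first rows only. The 4 columns of per-library levels name no sample and entered no result. Depth is unknown and no interval is given.

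Calls used the deposited FDR (under 0.05) and an absolute difference of at least 0.1 over the whole table. The rule was run on simulated data with an FDR computed there and planted changes beyond both limits. That run does not show how the rule behaves near the limits. The design foresaw no test of conditions. Members, role lists and the list of other spliceosome genes were chosen with earlier results of these data known. Named were all called member events, the 15 lowest p-values per table, the 5 largest differences per direction in single-row exons, single-row exons of at least 0.2 in both tables, and 1 event for a role with none; 29 genes met this rule, of which 1 is counted but not reported here, and others are named as examples. Positions are hg19, counted from 1. Exons were lined up with GENCODE 29 (GRCh38) by length and spacing, with at least 2 matching exons per gene; no coordinate was converted. Of 87 gene identifiers, 86 were in the name table. Python 3.11.15, pandas 2.3.3, numpy 2.4.6, scipy 1.17.1 and matplotlib 3.10.9 were used.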

Additional observations from a re-analysis of the deposited data

Results flagged for a closer look

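Inclusion of the 67-base U2AF1L4 exon stood out because RS3 and RS2 lay on opposite sides of the shared library, at 0.19 in RS3 and -0.128 in RS2 in the authors' deposited tables. The 79-base SNRPA1 exon did the same, at 0.29 in RS3 and -0.261 in RS2 in the authors' deposited tables. The difference between RS3 and RS2 was not tested for either exon, and none of the 4 values was called.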

How the results depend on the processing

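The count of 0 called RS2 member events, genes and lower events was the same under all 8 alternatives run. It could not rise under any FDR limit used, because the lowest FDR of an RS2 member event was 0.342. Of the 60 alternative values for counts, medians and shares, 53 were labelled near the main ones. These 53 include the RS2 counts of 0 and RS3 event counts of 6 and 10 beside 8, so the tally does not measure stability. In RS3, a minimum difference of 0.2 left 3 of the 8 events in 3 genes, all 3 with lower inclusion. Exons in a single row gave 5 events, 4 of them lower, and leaving out the RBM genes also gave 5 events, 4 of them lower. Under an FDR limit of 0.01, 6 events remained, without SRRM1 and the 113-base RBM23 exon. A minimum difference of 0.05 gave 10 events, with RBM39 and RBM4 added. In an alternative chosen after seeing the data, the median over the rows of an exon was -0.072 for LSM14B, -0.078 for the 48-base RBM23 exon and 0.014, a reversed sign, for the 113-base RBM23 exon. No paired analysis was possible because each group has 1 library. Recomputing the FDR from the p-values by Benjamini-Hochberg changed 0 calls. Depth is unknown, so which uncalled differences more reads would settle cannot be said.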

Other observations

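Of the 205 member exons in a single row of both tables, 39 have the same listed difference in RS2 and RS3, and for 33 of these it is not 0. It is at least 0.1 in size for 3 of them, and none of these was called. Among the 3 are exons of RBM26 (-0.570) and RBMS3 (97 bases, 0.174) in the authors' deposited tables. Both differences are taken against the same shared library, so equal values do not count as separate observations.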
